A study of Mus musculus with 4 samples.

Results

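Innate myeloid cells can respond to a graft of another strain before T cells are primed, and 6 receptor and ligand genes tied to that response were followed here across the cell types of mouse heart grafts. The members were chosen by symbol: *Pira2* and *Pirb*, *Lilrb4a* and *Lilr4b*, and *Sirpa* and *Cd47*. All 6 symbols were found, each on 1 row, among 30905 genes of the deposited table. The study transplanted donor hearts into the abdomen of C57BL/6J recipients, with male mice aged 8 to 10 weeks. There were 4 grafts in all, 2 allogeneic grafts from Balb/C donors and 2 syngeneic grafts from C57BL/6J donors, and every graft was removed and dissociated on day 5 posttransplant for 10x Chromium 3′ single-cell RNA sequencing. Each graft therefore mixed donor heart cells with C57BL/6J blood cells of the recipient, and the allogeneic grafts carried Balb/C sequence.

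The cells stood in 1 merged matrix, and the barcodes carried a suffix from 1 to 4, called libraries 1 to 4 here. No label paired a suffix with a graft, so the matrix was treated as 1 pooled sample without replicates, no test was run, and no value is set between graft types. The libraries held 13112, 13907, 13500 and 13305 barcodes with a median of 4808, 4759, 6319 and 9784 unique molecular identifiers (UMIs) per cell. Of 53824 barcodes, 42395 cells were kept, and 308 barcode sequences occurred in more than 1 library, with 0 such pairs holding identical counts. Clustering without the members gave 25 clusters, of which 19 fell into 10 named classes by markers and 6 stayed unnamed. Library 4 stood apart: 5864 of 7497 macrophage-like cells came from it, against 422, 148 and 1063 from libraries 1 to 3, and 8 of 10 macrophage subclusters drew over 90% of their cells from a single library. A level is the sum of a gene's UMIs over all non-mitochondrial UMIs of the group, times 1000000 (CPM), and intervals are 95% and cover counting error only, not the spread between animals.

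As background, PIR-A and PIR-B, encoded by the *Pira* genes and *Pirb*, are paired receptors of mouse myeloid and B cells that bind MHC class I: the PIR-A forms activate through the Fc receptor gamma chain, and PIR-B inhibits through tyrosine motifs that recruit the phosphatase SHP-1. The gp49 receptors, encoded by *Lilr4b* and its neighbour *Lilrb4*, are relatives of the same immunoglobulin-like family, found on mast, myeloid and activated natural killer (NK) cells. SIRPα, encoded by *Sirpa*, is an inhibitory receptor of phagocytes, and its ligand CD47 is a "do not eat me" signal on most cells. Both systems are known for myeloid recognition of self and non-self tissue.

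The pair of paired-receptor genes lies in 1 cluster of related genes on chromosome 7 (GRCm38, GENCODE M21), *Pirb* at chr7:3711409-3720391 and *Pira2* at chr7:3836812-3845051, both on the minus strand. The sequences below, from RefSeq (GRCm38.p6), run from 250 to 51 bases before each gene's start, at chr7:3720433-3720632 for *Pirb* and chr7:3845102-3845301 for *Pira2*, on the minus strand, and are shown because both genes, which were high in the same myeloid cells, are nearly identical here. Capitals mark GAGGAA and, on the other strand, TTCCTC, the core letters of the site bound by the myeloid factor PU.1.
Pirb: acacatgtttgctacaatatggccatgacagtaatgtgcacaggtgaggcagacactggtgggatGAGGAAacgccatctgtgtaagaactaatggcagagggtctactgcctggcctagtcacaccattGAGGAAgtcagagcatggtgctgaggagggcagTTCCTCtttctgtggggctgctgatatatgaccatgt
Pira2: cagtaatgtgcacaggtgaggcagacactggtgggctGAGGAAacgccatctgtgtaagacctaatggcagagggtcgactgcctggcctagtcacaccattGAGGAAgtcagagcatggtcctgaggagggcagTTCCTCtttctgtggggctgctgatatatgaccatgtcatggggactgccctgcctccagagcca
Of the 172 bases that align, 168 were the same (97.7%). Each window held GAGGAA at 2 places and TTCCTC at 1, while 18.8% of 32851 promoter windows of 200 bases held either. The windows of *Lilr4b* and *Cd47* held neither, and those of *Sirpa* and *Lilrb4a* were not examined. *Pira1* and *Lilra6*, of the same cluster, also held GAGGAA at 2 places and TTCCTC at 1. Their windows were 100% and 95.5% identical to that of *Pira2* where aligned. The likeness is thus shared by other genes of the cluster. A match is a run of letters and not a shown binding site.

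That likeness extends into the transcripts and may limit what short reads can tell apart. In the last 500 bases of the *Pira2* transcripts, where 3′ reads start, 34.3% of 100-base stretches also occurred in *Gm14548*, *Pirb*, *Lilra6* or *Gm15448*. Some of its reads may thus fit another gene as well, and how many were lost was not tested. For *Pirb* the share of such stretches was 7.70%, for *Lilr4b* 15.8%, and for *Sirpa* (chr2:129592835-129632228, plus strand) and *Cd47* (chr16:49800533-49915010, plus strand) it was 0. The row named *Lilrb4a* (chr10:51480612-51496613, plus strand) is a model that spans both neighbouring gp49 genes: 1968 of its 1990 exonic bases (98.9%) are shared with *Lilr4b* or *Lilrb4*, and 22 are its own. Its count is therefore no measure of a gp49 gene. The row named *Lilrb4* (chr10:51490956-51496611), which GENCODE M21 calls *Lilrb4a*, is given beside *Lilr4b* (chr10:51480632-51486703) instead. Of its stretches, 46.9% also occurred in the rows *Lilrb4a* or *Lilr4b*, so its count is limited too. Reads came from Balb/C as well as C57BL/6J cells and were aligned to the C57BL/6J genome, and whether Balb/C reads of these variable genes were lost was not tested.

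Among the named classes, all members but *Cd47* were highest in macrophage-like and granulocyte-like cells. Unnamed cluster 13, 1036 cells all from library 2 with 2 of 8 endothelial markers, is not covered by this. It held 1451 UMIs of *Lilr4b* and 486 of *Pirb*, against 930 and 829 in all endothelial-like cells, and the reason was not tested. *Pirb*, *Sirpa*, *Pira2*, *Lilr4b* and *Lilrb4a* were 63.0-, 39.1-, 43.0-, 31.6- and 7.39-fold higher in the 7497 macrophage-like than in the 12920 endothelial-like cells (ratio of CPM + 1), and *Cd47* was 1.30-fold higher. In log2 units the ratios were 5.98 for *Pirb* (interval 5.89 to 6.07), 5.43 for *Pira2* (5.28 to 5.57), 5.29 for *Sirpa* (5.19 to 5.38), 4.98 for *Lilr4b* (4.90 to 5.07), 2.89 for *Lilrb4a* (2.74 to 3.03) and 0.37 for *Cd47* (0.35 to 0.39). Thus 5 of 6 members were at least 4-fold higher in macrophage-like cells, against 8.83% of 10461 genes, and the median log2 ratio of the 6 was 5.13 against -0.38 over all these genes. The 5 include *Lilrb4a*, whose count is no measure of a gp49 gene. The 5 were also at least 4-fold higher within each of the 4 libraries, with ratios of 5.95-fold or more. For *Lilrb4a*, at 8.35 CPM, adding 10 CPM in place of 1 took the log2 ratio to 0.84, under 4-fold. The pooled ratios of *Pira2* and *Pirb* were above those of every single library, at 27.1-, 7.06-, 15.3- and 19.96-fold for *Pira2* and 48.4-, 58.0-, 55.0- and 17.2-fold for *Pirb* in libraries 1 to 4. Library 4 held 5864 of the macrophage-like and 644 of the endothelial-like cells. Without it the log2 ratio was 3.72 for *Pira2*, 5.29 for *Pirb*, 6.04 for *Sirpa* and 0.0895 for *Cd47*.

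**Figure D1:**
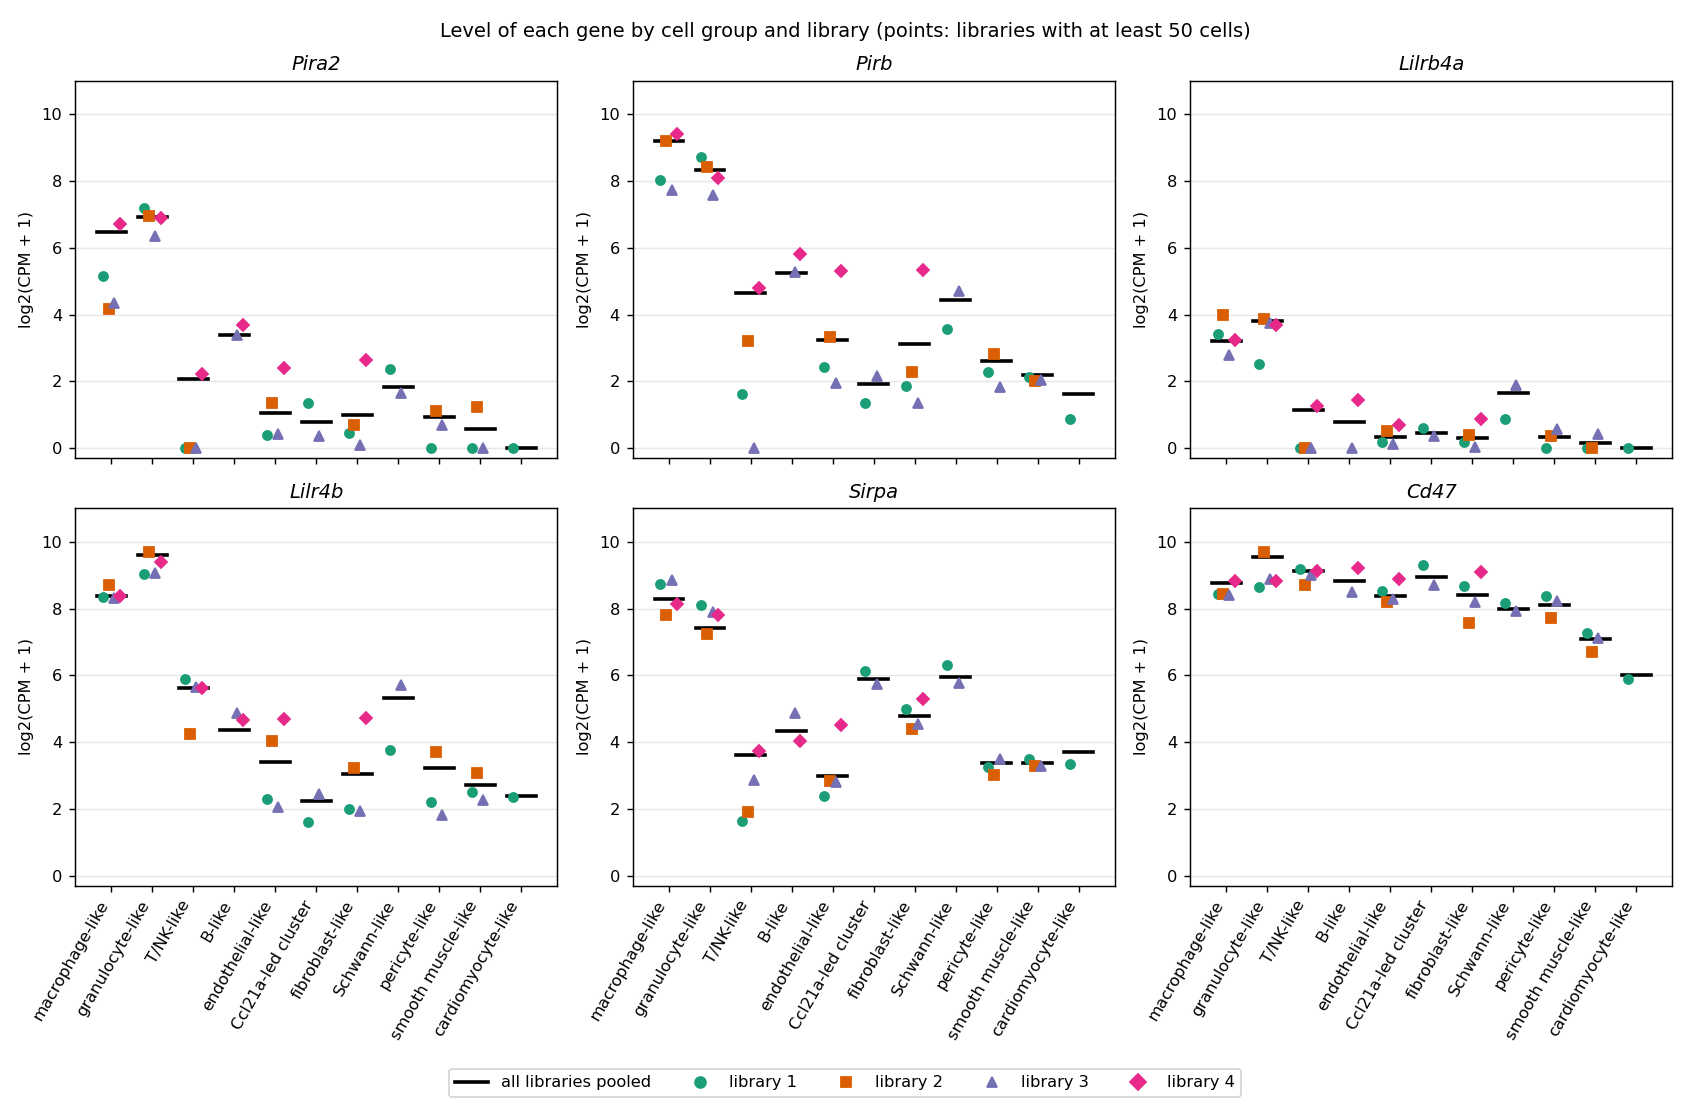
Level of each gene, as log2(CPM + 1), in 10 cell classes and the cluster led by Ccl21a. Black lines are all libraries pooled and symbols are libraries with at least 50 cells of the group. The macrophage-like and granulocyte-like points lie above all other points for Pira2, Pirb, Lilr4b and Sirpa, while Cd47 runs from 64.0 CPM in cardiomyocyte-like to 744 CPM in granulocyte-like cells.

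*Pira2*, the activating member, was pooled highest in granulocyte-like cells among the named classes. Subclusters did not all keep this order. The macrophage subclusters led by *Acta1* and by *Ifitm1* lay above the granulocyte-like level, and the granulocytes led by *Ero1l* lay below the macrophage-like level. It stood at 120 CPM (114 to 126) in granulocyte-like and 88.8 CPM (87.0 to 90.5) in macrophage-like cells. In libraries 1 to 4 the granulocyte-like level was 146, 122, 80.1 and 117 CPM, and the macrophage-like level was 34.8, 16.9, 19.3 and 105 CPM. The granulocyte-like level was 4.11-, 6.91- and 3.99-fold higher in libraries 1 to 3 and 1.11-fold in library 4, where the interval (0.988 to 1.25) included 1. The macrophage-like level of library 4 stood far above those of the others. In T/NK-like cells of libraries 1 to 3 no *Pira2* UMI was found, which allows up to 2.09, 4.10 and 3.72 CPM. The next classes in order were B-like cells at 9.46 CPM, and T/NK-like and Schwann-like cells at 3.23 and 2.56 CPM, whose intervals overlapped. From endothelial-like cells (1.09 CPM) down to cardiomyocyte-like cells (0 UMIs) the intervals of neighbouring classes overlapped. A *Pira2* UMI was seen in 56.0% of macrophage-like, 29.3% of granulocyte-like and 0.774% of endothelial-like cells, with medians of 14225, 3462 and 5066 UMIs per cell. With each cell thinned to 1000 UMIs the shares were 8.07%, 9.94% and 0.163%, the same order as the levels.

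*Pirb*, the inhibitory partner, was higher in macrophage-like cells, at 593 CPM (588 to 597), than in granulocyte-like cells, at 323 CPM (314 to 332), but not in every library. Its macrophage-like level in libraries 1 to 4 was 261, 587, 211 and 675 CPM, and its granulocyte-like level was 420, 340, 190 and 270 CPM. The granulocyte-like level was 1.61-fold higher in library 1, was 0.58- and 0.401-fold of the macrophage-like level in libraries 2 and 4, and in library 3 was 0.90-fold with an interval (0.765 to 1.06) that included 1. B-like cells, which are known to carry PIR-B, held 37.1 CPM (27.6 to 48.8), at 6.26% of the macrophage-like level, while their 11 macrophage markers summed to 12.4% of the level in macrophage-like cells. The libraries with at least 50 such cells differed: *Pirb* stood at 17.9% against 8.73% for the markers in library 3, and at 8.14% against 19.98% in library 4. The part of macrophage RNA in that B-like value was not tested.

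The balance between both genes differed between macrophage-like and granulocyte-like cells in the same way in all libraries. *Pirb* made up 88.2%, 97.2%, 91.6% and 86.5% of *Pira2* plus *Pirb* UMIs in macrophage-like cells of libraries 1 to 4. In granulocyte-like cells it made up 74.2%, 73.5%, 70.3% and 69.7%. The intervals of the classes did not overlap within any library, the closest being 86.5% at the lower end in macrophage-like and 79.6% at the upper end in granulocyte-like cells of library 1. All 6 granulocyte subclusters lay between 69.8% and 78.3%, and the 10 macrophage subclusters between 78.4% and 96.9%. These ranges met, as the highest granulocyte (74.8 to 81.5%) and lowest macrophage subcluster (76.1 to 80.5%) had overlapping intervals. The lowest of the 10, 139 cells led by *Ifitm1* and *Ccr7*, carried 4 of 6 mature dendritic markers and stayed unnamed. The next lowest macrophage subcluster lay at 83.2%. The cluster led by *Arg1* and *Ccl24*, of which 849 of 1045 cells came from library 2, lay at 78.5%, near the *Ifitm1*-led subcluster. The unnamed cluster led by *Ccr7* and *Flt3* lay at 69.3%, 78.6% and 82.3% in libraries 1, 3 and 4. Its intervals overlapped those of granulocyte-like cells in libraries 1 and 3. These shares are of placed 3′ UMIs and, since *Pira2* has more repeated stretches than *Pirb*, are not to be read as a ratio of molecules.

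**Figure D2:**
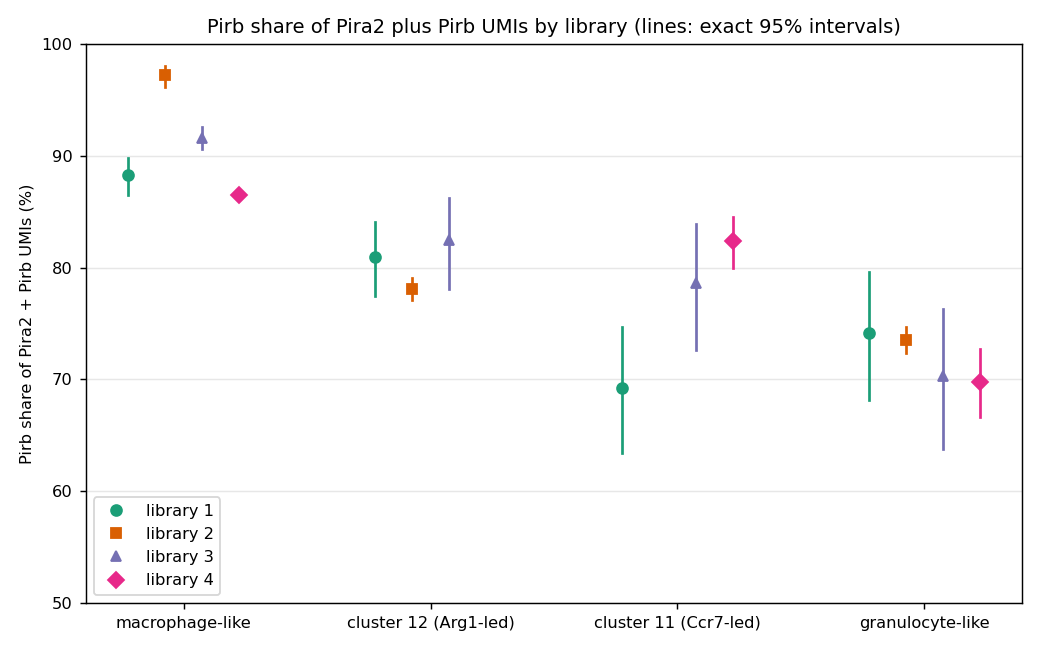
Share of Pirb in the sum of Pira2 and Pirb UMIs, in percent, for macrophage-like cells, granulocyte-like cells and the unnamed myeloid clusters 12 (led by Arg1) and 11 (led by Ccr7 and Flt3), by library. Lines are exact 95% intervals. The y axis runs from 50 to 100%, and granulocyte-like cells lie at 69.7 to 74.2% in the 4 libraries, below macrophage-like cells at 86.5 to 97.2%.

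The macrophage subclusters differed in *Pira2*, *Pirb* and *Sirpa*, and the 3 genes did not run in step. The Cx3cr1 macrophage-like subcluster, of which 321 and 940 of 1265 cells came from libraries 1 and 3, held 22.1 CPM of *Pira2*, 231 CPM of *Pirb* and 467 CPM of *Sirpa*. The Ly6c2 Plac8 monocyte-like subcluster, 724 cells all from library 4, held 120 CPM of *Pira2*, 835 CPM of *Pirb* and 224 CPM of *Sirpa*. The nonclassical monocyte-like subcluster, 646 cells also from library 4, held 87.8, 865 and 350 CPM of the same genes. Both monocyte-like groups thus had more *Pira2* and *Pirb* than the Cx3cr1 macrophage-like group and less *Sirpa*. Subcluster 7, a shallow group of 429 cells from library 4 with a median of 3627 UMIs led by *Acta1* and *Nos2*, was high in both, with 1078 CPM of *Pirb* and 552 CPM of *Sirpa*. These 3 groups of library 4 differed from one another within a library, whereas for their difference from the Cx3cr1 macrophage-like cells, cell state, library and graft cannot be told apart.

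The largest macrophage subclusters, 1919 cells led by *Gm15056* and *Aif1* and 1553 cells led by *Inhba* and *Nos2*, both of library 4, held 116 and 104 CPM of *Pira2* and 572 and 783 CPM of *Pirb*. The cycling-like subcluster held less of each, 58.3 and 446 CPM. *Lilr4b* varied less: it lay between 246 and 415 CPM in all macrophage subclusters except the shallow subcluster 7, at 545 CPM.

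The Ly6c2 Plac8 monocyte-like and the Folr2 Mrc1 resident macrophage-like subclusters were set side by side as recruited and resident types. *Pira2* stood at 120 CPM in the first and 18.9 CPM in the second, 6.10-fold higher (log2 2.61, counting standard error 0.22), and was 1 of 6 members to differ by at least 2-fold, against 12.6% of 9237 genes higher in the monocyte-like and 19.1% higher in the resident-like cells. *Pirb* was 1.43-fold and *Cd47* 1.65-fold higher in the monocyte-like cells, *Lilr4b* 1.43-fold and *Lilrb4a* 1.71-fold higher in the resident-like cells, and *Sirpa* nearly equal at 224 and 226 CPM. Of the resident-like cells, 146 of 149 came from library 2 and all monocyte-like cells from library 4, so cell type and library cannot be told apart.

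**Figure D3:**
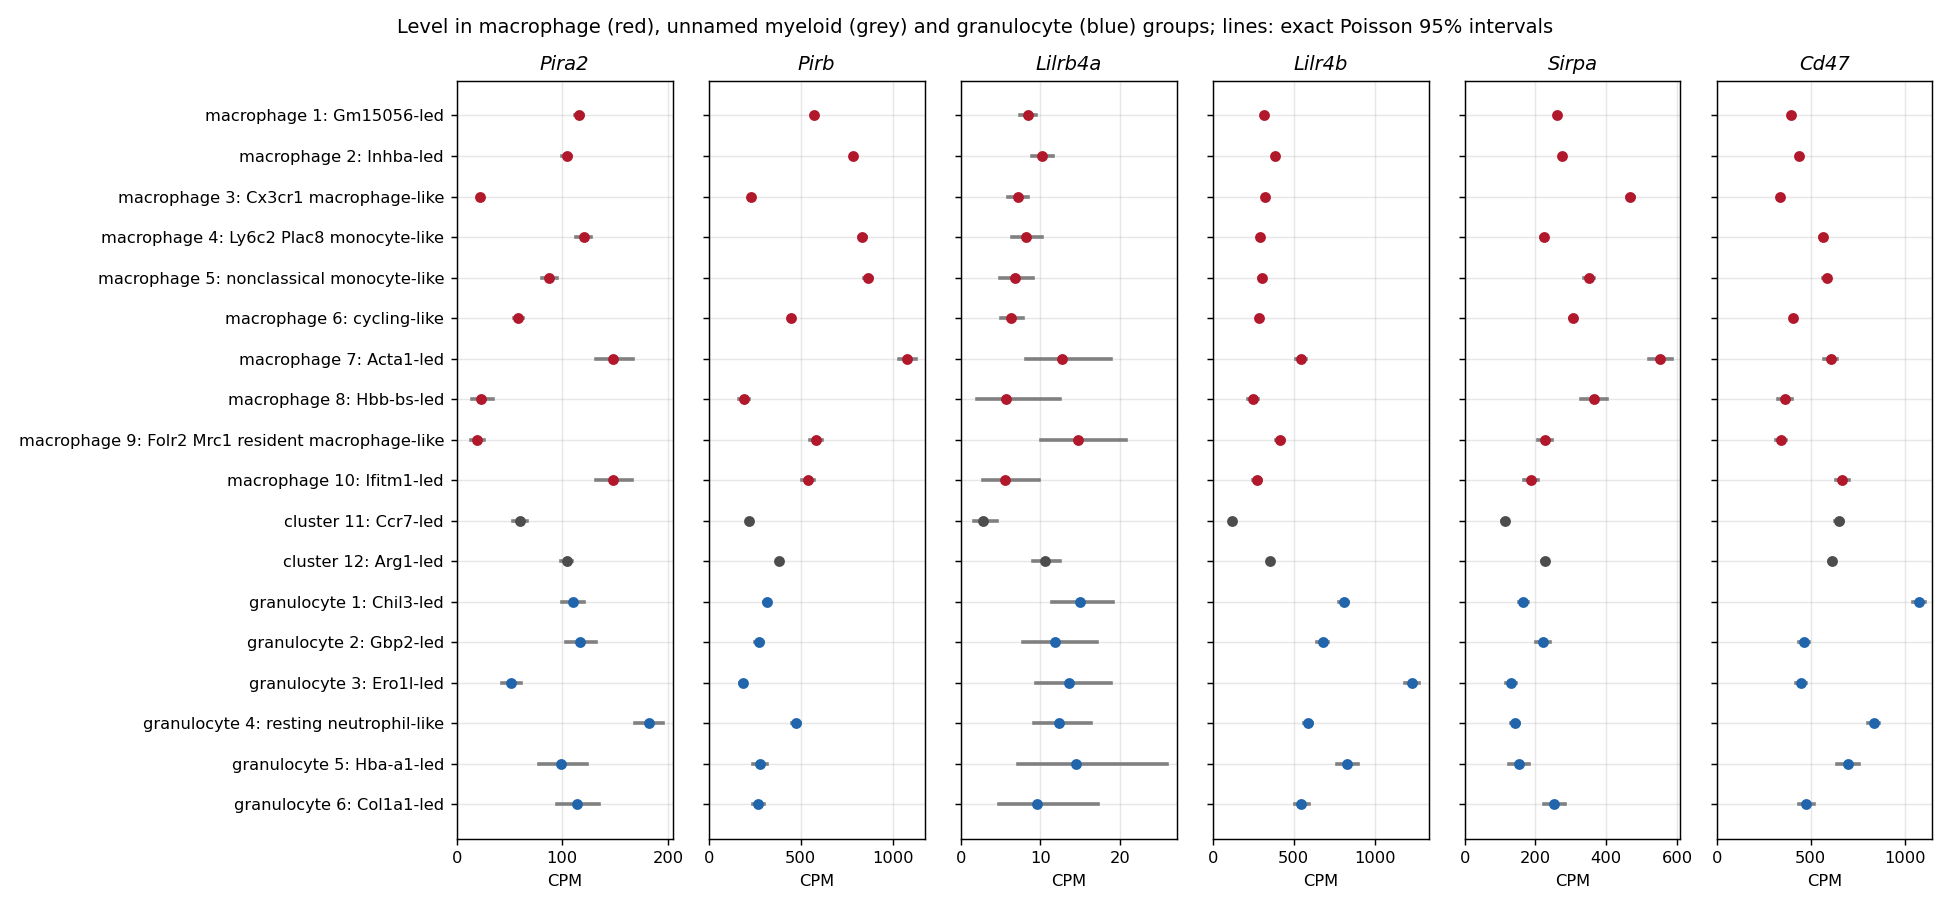
Level in CPM of the 6 genes in 10 macrophage subclusters (red), 2 unnamed myeloid clusters (grey) and 6 granulocyte subclusters (blue), each panel with its own scale from 0. Lines are exact Poisson 95% intervals. The Cx3cr1 macrophage-like row is low for Pira2 and Pirb, at 22.1 and 231 CPM, and high for Sirpa, at 467 CPM, and all granulocyte rows are high for Lilr4b.

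Other genes of the same families followed the members into myeloid cells: 7 of 8 passed 5 CPM in either class and all 7 were at least 4-fold higher in macrophage-like than endothelial-like cells, beside the 8.83% of all genes. Within myeloid cells they divided. *Gm14548* and *Lilra6*, further genes of the *Pira* cluster, were higher in granulocyte-like cells, at 57.1 and 65.9 CPM, than in macrophage-like cells, at 8.99 and 6.04 CPM, as was *Pira2*, with which they share stretches. *Lilra5*, an activating relative outside that cluster and without such repeats, went the other way, with 0.530 CPM in granulocyte-like and 13.7 CPM in macrophage-like cells. Its level was 49.8 CPM in Cx3cr1 macrophage-like, 38.0 CPM in nonclassical monocyte-like, 29.5 CPM in resident-like and 2.56 CPM in Ly6c2 Plac8 monocyte-like cells. Of the activating SIRPβ genes, which signal through the adaptor DAP12, *Sirpb1c* stood at 185 CPM in macrophage-like and 68.2 CPM in granulocyte-like cells, and *Sirpb1b* at 40.9 and 74.5 CPM. As for *Pira2*, the monocyte-like level of *Sirpb1c* was above the resident-like one: it stood at 245 CPM in Ly6c2 Plac8 monocyte-like, 70.5 CPM in Cx3cr1 macrophage-like and 26.2 CPM in resident-like cells. The SIRPβ genes share stretches among themselves, 29.4% for *Sirpb1c*.

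*Lilr4b*, the gp49 receptor gene, was highest in granulocytes in every library. It stood at 783 CPM (769 to 798) in granulocyte-like and 329 CPM (326 to 333) in macrophage-like cells. In libraries 1 to 4 the granulocyte-like level was 521, 832, 540 and 679 CPM, and the macrophage-like level was 321, 416, 315 and 330 CPM. The ranges of the classes did not overlap, and the granulocyte-like level was 1.62-, 2.00-, 1.71- and 2.05-fold higher. The subcluster led by *Ero1l* and *Bnip3*, both genes known to respond to low oxygen, held the most at 1231 CPM, and all its 668 cells came from library 2, where the resting neutrophil-like subcluster held 590 CPM. *Lilrb4*, the inhibitory gp49B gene, moved alike: it stood at 91.9, 166, 161 and 136 CPM in granulocyte-like and 45.6, 55.2, 56.6 and 43.7 CPM in macrophage-like cells of libraries 1 to 4. As 46.9% of its stretches also occurred in *Lilrb4a* or *Lilr4b*, both genes may not be separate measures. *Lilrb4a* stood at 13.1 CPM in granulocyte-like and 8.35 CPM in macrophage-like cells, and made up 1.65% and 2.47% of *Lilrb4a* plus *Lilr4b* UMIs.

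*Lilr4b* was also present in T/NK-like cells, where *Pirb* was low. Its level there was 58.6, 17.8, 49.7 and 48.1 CPM in libraries 1 to 4. That of *Pirb* was 2.09, 8.19, 0 and 27.0 CPM, with 0 UMIs in library 3. Relative to macrophage-like cells of the same library, *Lilr4b* stood at 18.3%, 4.27%, 15.8% and 14.6%, while the complement genes *C1qa*, *C1qb* and *C1qc*, which define macrophages, summed to 0.263%, 0.190%, 0.878% and 2.78%. All 11 macrophage markers together, which include *Ly6c2* and *Plac8* of some T cells, summed to 2.88%, 0.901%, 3.25% and 8.32%. *Lilr4b* thus stood above both sums in all 4 libraries, as did *Lilrb4* at 30.6%, 7.41%, 19.7% and 11.9%. This was not particular to T/NK-like cells. In endothelial-like cells *Lilr4b* stood at 1.20%, 3.68%, 1.01% and 7.56%, and all 11 markers at 0.380%, 0.392%, 0.595% and 4.94%, with the C1q genes lower still. In Schwann-like cells of libraries 1 and 3 *Lilr4b* also stood above both sums. These sums hold no granulocyte genes. Relative to granulocyte-like cells, endothelial-like *Lilr4b* stood at 0.741%, 1.84%, 0.59% and 3.67% in libraries 1 to 4. The granulocyte markers stood at 0.0508%, 0.958%, 0.0683% and 0.625% there, and the part of granulocyte RNA was not tested. In T/NK-like cells *Lilrb4a*, whose model overlaps both genes, had no UMI in libraries 1 to 3 and stood at 16.3% in library 4. In T/NK-like cells of libraries 1, 3 and 4 *Lilr4b* stood at 7.08% to 11.3% of its granulocyte-like level and the granulocyte markers at 0.144% or less. In library 2 the same shares were 2.13% and 1.25%, and its *Lilr4b* level was near that of endothelial-like cells, at a ratio of 1.15 (0.683 to 1.94). By subcluster, *Lilr4b* was 83.5 and 66.7 CPM in the larger NK-like groups, 80.5 CPM in regulatory T-like cells, 51.2 CPM in the group led by *Ifng* and *Ccl3* and 26.5 CPM in the group led by *Rrm2* and other cell cycle genes. In regulatory T-like cells of library 4 the macrophage markers stood at 16.3% and *Lilr4b* at 24.7% of the macrophage-like level, and in the larger NK-like group at 7.64% and 25.3%. A *Lilr4b* UMI was found in 36.6% of T/NK-like cells at a median of 8453 UMIs and in 6.32% of endothelial-like cells at 5066 UMIs, and in 7.07% and 1.17% with cells thinned to 1000 UMIs.

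*Sirpa*, the phagocyte receptor for CD47, was higher in macrophage-like than granulocyte-like cells in all 4 libraries. Its macrophage-like level was 429, 224, 460 and 278 CPM in libraries 1 to 4, and its granulocyte-like level was 273, 149, 235 and 222 CPM. The granulocyte-like level was thus 0.64-, 0.67-, 0.51- and 0.80-fold of the macrophage-like level, with intervals below 1 in each library. *Sirpa* was high in libraries 1 and 3, where the Cx3cr1 macrophage-like cells lay, and *Pirb* in libraries 2 and 4. The macrophage-like cells of libraries 1 to 3 were mostly of cluster 10 and those of library 4 of cluster 2, so these values compare different macrophages as well as libraries.

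*Sirpa* was also found at lower levels in lymphatic-marked endothelial cells, Schwann-like cells and fibroblasts. The cluster led by *Ccl21a*, *Mmrn1* and *Prox1*, genes known from lymphatic vessels, held 69.1 CPM in its 182 cells of library 1 and 52.1 CPM in its 284 cells of library 3. Other endothelial-like cells of the same libraries held 4.14 and 5.69 CPM, a ratio of 13.6-fold (10.8 to 17.3) and 7.94-fold (6.58 to 9.59). A lymphatic endothelial-like subcluster, 146 cells in library 2, held 39.9 CPM against 4.20 CPM, 7.87-fold higher (6.06 to 10.2). In all 3 libraries *Sirpa* stood at 11.3% to 17.8% of its macrophage-like level in these cells and the C1q genes at 0.781% or less, and *Pirb* stood at 4.37 CPM or less. A *Sirpa* UMI was found in 36.1% of the *Ccl21a*-led cells and 4.32% of endothelial-like cells, which had 8133 and 5066 UMIs at the median. After thinning to 1000 UMIs it was found in 5.76% and 0.817%.

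Schwann-like cells, the glia of cardiac nerves, held 78.0 and 53.9 CPM of *Sirpa* in libraries 1 and 3, 15.3- and 7.92-fold the endothelial-like level. In library 1 this was 18.2% of the macrophage-like level beside 0.583% for the C1q genes, and in library 3 it was 11.7% beside 4.48%. In library 1 *Pirb* stood at 4.18%, *Lilr4b* at 3.92% and *Pira2* at 12.1% of the macrophage-like level in these cells. In library 3 *Pirb* stood at 11.96%, *Pira2* at 11.03% and *Lilr4b* at 16.2%, so *Sirpa* was not above the other myeloid members there, and the part of macrophage RNA was not tested. Fibroblast-like cells held 30.5, 20.2, 22.5 and 38.1 CPM in libraries 1 to 4. In libraries 1 to 3 that was 4.88% to 9.01% of the macrophage-like level against 0.337% or less for the C1q genes, and in library 4 it was 13.7% against 6.23%. In library 4, the macrophage markers together reached 11.6% in fibroblast-like and 4.94% in endothelial-like cells, and *Pirb* was at 5.90% and 5.68%, so the myeloid members and the macrophage markers were high together outside leukocytes in that library, and the part of macrophage RNA in those values was not tested.

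**Figure D4:**
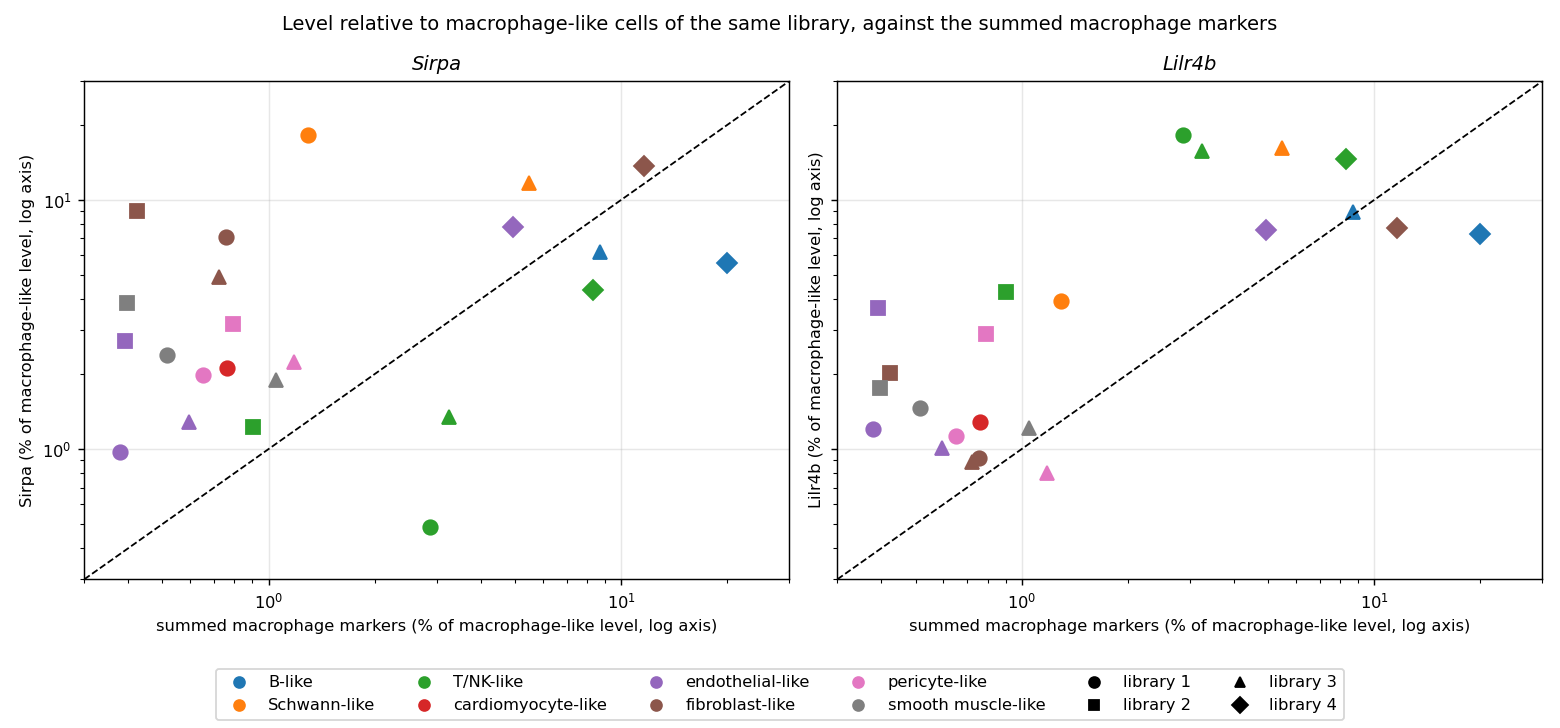
Level of Sirpa and Lilr4b outside macrophage-like and granulocyte-like cells, in percent of the macrophage-like level of the same library, against the summed macrophage markers on the same scale; both axes are logarithmic and the dashed line marks equal shares. Colours are cell classes and symbols are libraries. Schwann-like and fibroblast-like points lie above the line for Sirpa, as do endothelial-like, pericyte-like, smooth muscle-like and cardiomyocyte-like points. T/NK-like points lie above it for Lilr4b, at 4.27% to 18.3%, as do endothelial-like and Schwann-like points. The summed markers hold no granulocyte genes.

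*Cd47*, the ligand, was broad. Pooled, it was highest in granulocyte-like cells at 744 CPM (731 to 758), followed by T/NK-like cells at 553 CPM, B-like cells at 456 CPM and macrophage-like cells at 431 CPM, the intervals of the last 2 overlapping. The granulocyte-like level was 396, 835, 472 and 457 CPM in libraries 1 to 4, and the T/NK-like level 577, 415, 509 and 557 CPM, so granulocyte-like cells were above T/NK-like cells in library 2 and below them in the other 3. In library 4 the B-like level was 594 CPM. Lower levels ran from fibroblast-like (339 CPM) and endothelial-like cells (332 CPM), through pericyte-like (274 CPM) and Schwann-like cells (251 CPM), to smooth muscle-like (134 CPM) and cardiomyocyte-like cells (64.0 CPM). The macrophage-like level was 348, 342, 336 and 453 CPM and the endothelial-like level 369, 291, 314 and 477 CPM in libraries 1 to 4. Their log2 ratio was -0.087, 0.23, 0.096 and -0.072 within the libraries, so the pooled difference of 0.37 was larger than in any single library. Muscle-like cells were the lowest named class in each library with at least 50 of them: smooth muscle-like cells held 154, 104 and 138 CPM in libraries 1, 2 and 3, and cardiomyocyte-like cells 58.5 CPM in library 1.

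Within the classes *Cd47* still varied. The granulocytes led by *Chil3*, 1076 of 1077 from library 2, held 1077 CPM and those led by *Ero1l* 449 CPM, the reverse of their order for *Lilr4b*. NK-like subclusters held 783, 719 and 810 CPM, above the regulatory T-like (595 CPM) and the *Rrm2*-led group (513 CPM). Among endothelial cells the *Ccl21a*-led cluster held 628 and 420 CPM in libraries 1 and 3, 1.70- and 1.34-fold the level of the others, and the lymphatic endothelial-like subcluster of library 2 held 380 CPM, 1.33-fold. Both *Sirpa* and *Cd47* were thus higher in lymphatic-marked than in other endothelial-like cells in the 3 libraries compared; the 11 such cells of library 4 were too few. Fibroblast-like *Cd47* was 409, 189, 293 and 549 CPM in libraries 1 to 4, lowest in library 2, where 926 of 947 such cells belonged to a cluster led by *Prg4* and *Cxcl5*.

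The partner genes divided by role. Of 31 genes named, 27 reached 5 CPM in either class, and 10 of these were at least 4-fold higher in macrophage-like than endothelial-like cells, beside the 8.83% of all genes, with a median log2 ratio of 1.32. The partner ratios are pooled over libraries and were not taken within each library. The adaptors and the kinase listed for activating signals in general were 4 of 4. *Fcer1g* stood at 4373 CPM and *Tyrobp*, encoding DAP12, at 2514 CPM in macrophage-like cells, against 41.9 and 36.8 CPM in endothelial-like cells. *Hcst* and *Syk* were 10.9- and 27.7-fold higher. Of the Src family kinases that phosphorylate these receptors, *Fgr* was 34.4-fold higher and *Lyn* 3.14-fold. Of the phosphatases, *Ptpn6*, encoding SHP-1, was 78.2-fold higher, *Inpp5d* 3.91-fold higher, and *Ptpn11*, encoding the widely used SHP-2, 1.88-fold lower, at 40.8 against 77.4 CPM.

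Among ligands, 0 of 7 MHC class I genes were at least 4-fold higher in macrophage-like cells in the pooled ratio. The share over all genes was 8.83%, so this count lies near it and does not set the ligands apart. Among the 7, the pooled log2 ratio ran from -0.92 for *H2-Q4* to 1.32 for *H2-Q7*. Library 4 held 5864 of 7497 macrophage-like but 644 of 12920 endothelial-like cells, so class and library are mixed in that ratio. Balb/C reads were aligned to the genome of the recipient strain, and whether reads of these genes were lost was not tested. *H2-K1* stood at 3650 CPM in macrophage-like and 1986 CPM in endothelial-like cells, and *H2-Q4* at 278 and 525 CPM. Within macrophages *H2-K1* was 1550 CPM in Cx3cr1 macrophage-like, 630 CPM in resident-like, 3366 CPM in Ly6c2 Plac8 monocyte-like and 4910 CPM in nonclassical monocyte-like cells, so both monocyte-like groups of library 4 held more of it than the others, and cell type and library cannot be told apart. The remaining ligands of PIR-B were unlike one another: *Rtn4*, encoding Nogo, stood at 285 and 333 CPM, *Mag* at 8.48 and 0.0610 CPM, and *Omg* and *Angptl2* under 5 CPM in both classes. Of the genes listed for gp49B, whose binding was not tested, *Apoe*, encoding an apolipoprotein, was 24.7-fold higher in macrophage-like cells. It stood at 38382 CPM in Cx3cr1 macrophage-like and 120 CPM in Ly6c2 Plac8 monocyte-like cells. *Itgb3*, encoding an integrin chain, was 11.6-fold lower in macrophage-like cells. *Thbs1*, encoding the CD47 ligand thrombospondin-1, was 3.71-fold higher pooled and stood at 2898 CPM in granulocyte-like cells. Its gap differed by group. The endothelial-like subcluster led by *Ubd*, 630 of 632 cells from library 4, held 164 CPM. The largest macrophage subclusters, of the same library, held 214 and 292 CPM. Cx3cr1 macrophage-like cells held 348 CPM, and endothelial-like subclusters 1, 2 and 4, mostly of libraries 1 and 3, held 16.4 to 32.4 CPM. *Sftpd* and *Sftpa1*, lung collectins, held 2 and 0 UMIs in both classes together. *Lrp1*, the phagocytic receptor for the calreticulin signal that CD47 opposes, was 15.1-fold higher in macrophage-like cells and 737 CPM in fibroblast-like cells, and *Calr* itself 1.94-fold higher pooled. The *Ubd*-led endothelial-like subcluster held 1364 CPM of *Calr*, and the largest macrophage subclusters of library 4 held 1499 and 1224 CPM. *Qpctl*, whose enzyme modifies CD47 so that SIRPα binds it, was 1.88-fold lower in macrophage-like cells, at 6.62 against 13.3 CPM.

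**Figure D5:**
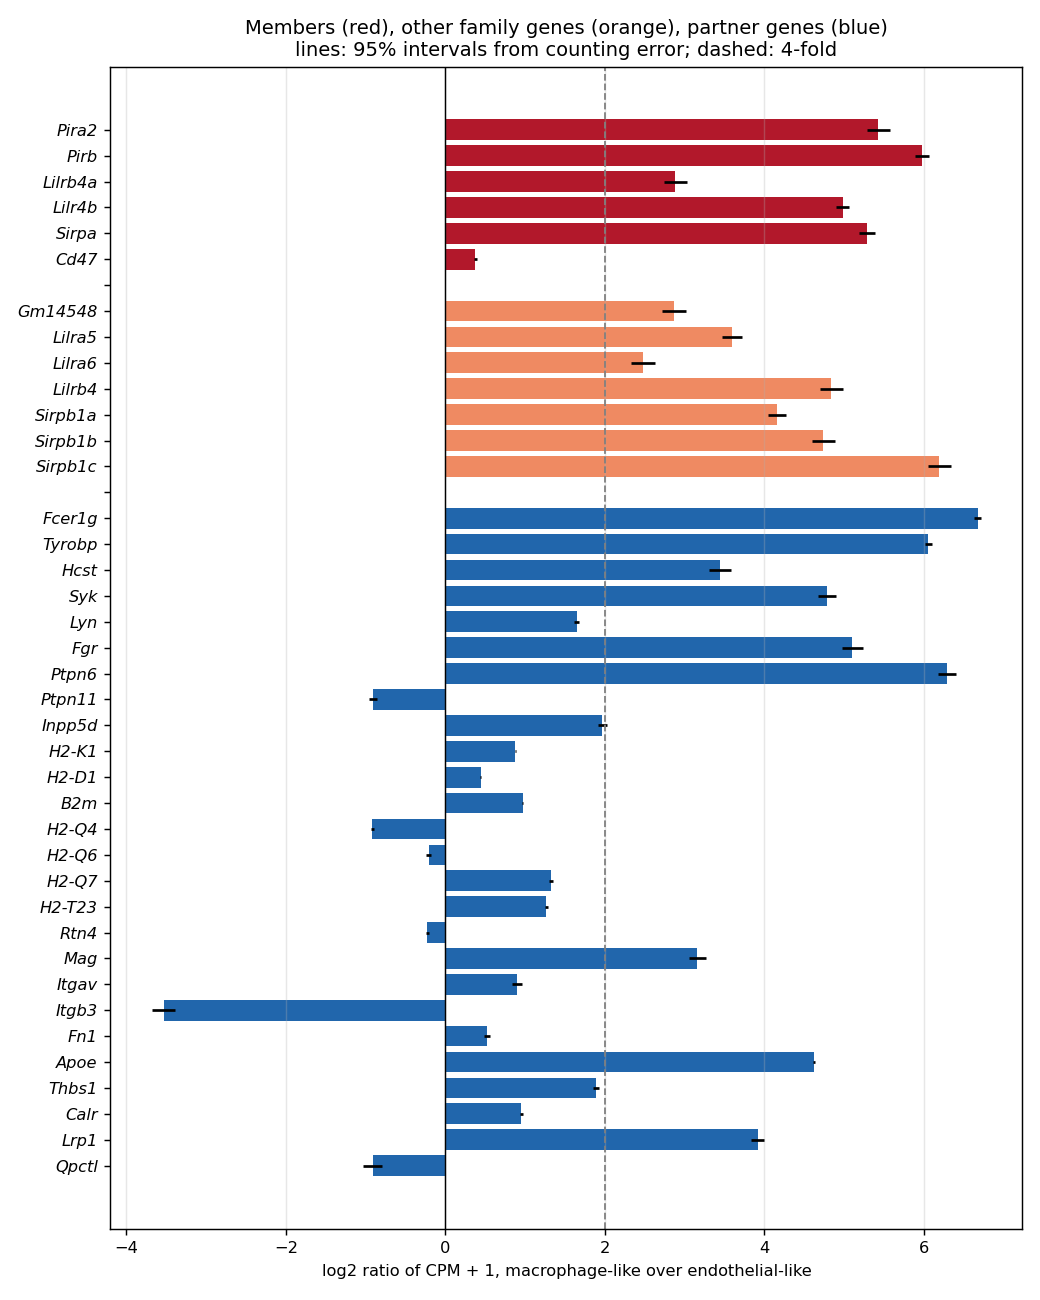
Log2 ratio of CPM + 1, macrophage-like over endothelial-like cells, for the 6 genes (red), their families (orange) and partner genes (blue) that reached 5 CPM in either class, with 1 partner gene not shown. Lines are 95% intervals from counting error and the dashed line marks 4-fold. Red bars run from 0.37 for Cd47 to 5.98 for Pirb, and the MHC class I bars stay between -0.92 and 1.32.

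Over 48 cell groups, each cell counted once, the levels of the 5 myeloid members ran together and *Cd47* apart. Pearson r of log2(CPM + 1) was 0.96 for *Pira2* with *Pirb*, 0.88 for *Pira2* with *Sirpa*, 0.90 for *Pirb* with *Sirpa*, 0.90 for *Pirb* with *Lilr4b* and 0.81 for *Lilr4b* with *Sirpa*, against 0.37 to 0.54 for *Cd47* with the other 5. The groups share libraries and depths, and such values describe mainly the divide between myeloid and other cells. Of 12881 other genes, those most alike in pattern were *Rasgrp4*, *Pirb* and *Gpr35* for *Pira2* (r = 0.96, 0.96 and 0.95), *Lrrc25* and *Spi1* for *Pirb* (0.97 and 0.97), *Ptafr*, *Ccr1* and *Clec5a* for *Lilrb4a* (0.94, 0.93 and 0.93), *Lilrb4*, *Osm* and *Fgr* for *Lilr4b* (0.98, 0.97 and 0.95), *Tgfbi*, *Lacc1* and *Pla2g7* for *Sirpa* (0.94, 0.94 and 0.93), and *Capza1*, *Sri* and *Arpc3* for *Cd47* (0.85, 0.83 and 0.83).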

How the data were processed

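The authors deposited 1 matrix of raw UMI counts per gene and cell, which they had made with Cell Ranger 3.0.0 from reads aligned to mm10 with Ensembl 92 genes, merged over the 4 grafts and not normalized. The deposited gene and barcode lists hold identifiers and no measured values. The members and gene lists were chosen with earlier results of these data known. Here, cells with over 200 genes and under 20% mitochondrial UMIs (44626) were kept, as the study's methods state, and mitochondrial genes were removed. The top 5% of cells per library by a simulated-doublet score were left out as doublets, which left 42395. The study reported fewer cells than this, for a reason that is not known. Cells were clustered on 2000 variable genes without the members, their families and the partner genes (10 principal components, 30 neighbours, Leiden resolution 0.8, subclusters 0.5; numpy 2.4.6, scikit-learn 1.9.0, leidenalg 0.10.2). A cluster was named from at least 3 of its fixed markers, and stayed unnamed where genes of another class led it or its depth was low. The names were rebuilt and may differ from the study's.

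Levels are pooled CPM with exact Poisson intervals, shares have exact Clopper-Pearson intervals, and folds are ratios of CPM + 1 with intervals from counting error. Total counts per library were 96020294, 115162601, 138892048 and 166079145 UMIs. The text names all members, every gene of their families (symbols starting with Pira, Pirb, Lilr or Sirp, with Gm14548, Gm15448 and, not found, Gm15922 and Gp49a), the partner genes and the 3 genes most like each member, except that 1 gene of these lists is counted but not reported here. Subclusters, libraries and ratios between other groups were described after the levels were seen. Fold steps were tested on simulated data. Alternatives changed the clustering, filters, doublet step, weighting, added CPM and libraries.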

Additional observations from a re-analysis of the deposited data

How the results depend on the processing

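The log2 ratios of macrophage-like over endothelial-like level kept their direction under all alternatives run. Within single libraries, however, the ratio of *Cd47* was reversed in libraries 1 and 4, at -0.087 and -0.072. Of the values, each from a result and a setting, 29 moved by less than the interval, or by under 1.5 times for a count. Another 50 moved by more, and the cause was not tested. At Leiden resolution 0.4 the log2 ratio was 5.70 for *Pira2*, 6.41 for *Pirb*, 5.19 for *Lilr4b* and 0.52 for *Cd47*. At resolution 1.6 the log2 ratio was 6.07 for *Pirb* and 5.15 for *Lilr4b*. With 20 principal components the log2 ratio was 5.89 for *Pirb*. With doublets kept the log2 ratio was 5.81 for *Pira2*, 6.68 for *Pirb*, 5.52 for *Lilr4b*, 5.70 for *Sirpa* and 0.43 for *Cd47*. With over 500 genes required per cell the log2 ratio was 4.73 for *Pira2*, 5.50 for *Pirb*, 2.31 for *Lilrb4a*, 3.52 for *Lilr4b*, 4.39 for *Sirpa* and 0.46 for *Cd47*. With the members, families and partner genes among the variable genes the log2 ratio was 4.98 for *Pira2*, 5.55 for *Pirb*, 2.51 for *Lilrb4a*, 3.90 for *Lilr4b* and 4.99 for *Sirpa*. With each cell weighted equally the log2 ratio was 4.78 for *Pira2*, 5.28 for *Pirb*, 2.57 for *Lilrb4a*, 3.997 for *Lilr4b*, 4.86 for *Sirpa* and 0.45 for *Cd47*. With 10 CPM added the log2 ratio was 3.16 for *Pira2*, 5.03 for *Pirb*, 0.84 for *Lilrb4a*, 4.12 for *Lilr4b* and 4.23 for *Sirpa*. With the cluster led by *Arg1* counted as macrophage-like, an alternative chosen after seeing the data, the log2 ratio was 0.45 for *Cd47*. Leaving out each library in turn gave 3.72 to 5.62 for *Pira2*, 5.29 to 6.04 for *Pirb*, 2.81 to 2.97 for *Lilrb4a*, 4.61 to 5.50 for *Lilr4b*, 5.08 to 6.04 for *Sirpa* and 0.0895 to 0.43 for *Cd47*, with the lowest values of *Pira2*, *Pirb* and *Cd47* and the highest of *Sirpa* without library 4. Only with 10 CPM added did *Lilrb4a* fall under 4-fold, and the other 4 myeloid members stayed above it in every setting. Without a filter on low levels 957 in place of 924 genes were at least 4-fold higher in macrophage-like cells. Of the members, *Lilrb4a* had the fewest UMIs in endothelial-like cells, at 26, and the reason was not tested. No alternative can stand in for replicates.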
